A study of Mus musculus with 12 samples.

Results

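The small leucine-rich proteoglycans (SLRPs) are secreted matrix proteins built around a run of leucine-rich repeats. The 8 SLRP genes Dcn, Bgn, Lum, Fmod, Ogn, Aspn, Prelp and Omd were picked by name from the table of 55401 genes, and all 8 had a row. Of the 12016 genes that passed a filter on low levels and were tested, 5 were SLRPs of this set (Bgn, Dcn, Fmod, Ogn and Prelp). Lum, Aspn and Omd did not pass it and were tested only in a fit with no filter.

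SLRPs coat collagen fibrils, where they set fibril spacing and diameter, and several of them bind growth factors of the TGF-β family and hold them in the matrix. They are sorted into classes. Decorin (Dcn), biglycan (Bgn) and asporin (Aspn) are class I, of which decorin and biglycan carry chondroitin or dermatan sulfate chains. Fibromodulin (Fmod), lumican (Lum), PRELP (Prelp) and osteoadherin (Omd) are class II, several of which carry keratan sulfate, and osteoglycin (Ogn, also called mimecan) is class III. In connective tissue these genes are expressed by fibroblasts and other mesenchymal cells, and TGF-β1 is known to change the expression of several of them.

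Bone marrow mesenchymal stem cells (MSCs) of C57BL/6 mice, which the study bought from a supplier, were the cells in all 4 groups. They were left untreated, treated with TGF-β1 at 5 ng/mL (TGF-β1), given the same TGF-β1 together with culture supernatant of monocytic myeloid-derived suppressor cells (TGF-β1 with M-MDSC sup), or given it together with that of granulocytic ones (TGF-β1 with G-MDSC sup). Supernatant was not given without TGF-β1, so its effect was read against TGF-β1 alone, and both supernatant comparisons share those 3 libraries. The study describes 24 h for supernatant cultures, and the labels give no time for these libraries. Each group had 3 libraries, and nothing in the labels says that they came from separate cultures, so p-values measure the spread between libraries, which may be technical.

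The libraries held 73977669 to 84565450 counts. The MSC markers were all detected (9 of 9 in every library, with a summed level of 502 to 602 FPKM), although Eng stayed below 1 FPKM throughout and Nt5e was 0.321 to 0.505 FPKM in the untreated cells. Their sum hid moves of single markers: of the 8 tested, 4 rose and 4 fell with TGF-β1. Ly6a, which encodes the surface antigen Sca-1, was 241 to 251 FPKM in the untreated, at most 18.8 in the TGF-β1, 82.6 to 103 in the M-MDSC sup and 63.3 to 69.2 in the G-MDSC sup libraries. Pdgfra was 13.2 to 15.5 FPKM in the untreated libraries and 4.58 to 5.33 FPKM with TGF-β1, and mean FPKM in these groups was 3.97 and 1.60 for Vcam1 and 4.49 and 2.16 for Thy1. The 4 that rose were Itgb1 (mean 253.8 and 385.3 FPKM in the same groups), Cd44 (39.48 and 53), Pdgfrb (32.3 and 44.65) and Nt5e (0.407 and 1.003). The part of these shifts in the SLRP results was not tested. FPKM is a fragment count scaled for transcript length and for the depth of the library, so levels can be compared between genes. Of 11 myeloid markers, 2 to 7 had a count of 0. Cd14, which made up most of their sum, was 22.6 to 23.5 FPKM in the untreated, 12.4 to 14.6 in the TGF-β1, 18.5 to 21.4 in the M-MDSC sup and 21.8 to 23.6 in the G-MDSC sup libraries, and the other 10 summed to 2.53 to 2.75, 1.08 to 1.19, 1.86 to 4.43 and 3.72 to 6.89 FPKM. Among them Lyz2, the myeloid lysozyme gene, was at most 0.191 FPKM without supernatant and 0.651 to 2.29 FPKM with it, while Mpo and Elane were at 0 throughout. Ly6g went the other way: it was 1.74 to 1.89 FPKM in the untreated libraries, most of the sum of the 10 there. In every treated library it was at most 0.199 FPKM. The 5 endothelial markers summed to at most 0.600 FPKM. Transcripts of other organs stood out in the supernatant libraries. The 7 hepatocyte markers were at 0 counts in all untreated and TGF-β1 libraries, summed to 63.8 to 69.2 FPKM in the 3 G-MDSC sup libraries and 59.3 FPKM in M-MDSC sup replicate 3, and were 0.526 and 0.502 FPKM in M-MDSC sup replicates 1 and 2, where 5 of the 7 were at 0. Of the 12 kidney epithelial markers, 8 or 9 were at 0 in each library without supernatant and none with it. Aqp1, which is not particular to kidney, was 28.9 to 30.4 FPKM in the untreated, 4.15 to 4.31 in the TGF-β1 and 2.84 to 3.91 in the supernatant libraries, and the other 11 summed to at most 0.201 FPKM without supernatant, 74.6 to 86.3 FPKM with G-MDSC sup and 35.7 to 109 FPKM with M-MDSC sup. The differences of the 5 tested SLRPs, and the calls in the lists of SLRP partners, between M-MDSC sup and TGF-β1 alone are also given without the 4 libraries that held hepatocyte transcripts. That fit kept no G-MDSC sup library and only M-MDSC sup replicates 1 and 2. It called 319 of 12016 genes with M-MDSC sup, against 574 with all libraries, so a call lost there is read beside its log2 fold change. No G-MDSC sup library was free of hepatocyte transcripts, and no supernatant library was free of kidney transcripts. These transcripts and the supernatant therefore cannot be told apart there, and their part in the results was not tested.

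Most of the SLRP genes lie in clusters whose members did not all respond in 1 direction, so their positions and promoters come first. Coordinates are those of the deposited table (GRCm38). Prelp (ENSMUSG00000041577, chr1:133910304-133921414, minus strand) and Fmod (ENSMUSG00000041559, chr1:134037254-134048277, plus strand) lie 115.8 kb apart. Dcn (ENSMUSG00000019929, chr10:97479609-97518143) and Lum (ENSMUSG00000036446, chr10:97565128-97572703) are 47.0 kb apart on the plus strand. Aspn (ENSMUSG00000021388, chr13:49544443-49567565), Omd (ENSMUSG00000048368, chr13:49582462-49592822) and Ogn (ENSMUSG00000021390, chr13:49608046-49624501) follow each other on the plus strand with gaps of 14.9 and 15.2 kb. Bgn (ENSMUSG00000031375, chrX:73483602-73495933) lies alone. Aspn, Omd and Ogn all lie within the span of Cenpp, a centromere protein gene on the other strand that had 519 to 672 counts in every library. The libraries keep strand, but whether the counting used it is not given in the sources used here, so a share of the low counts of Aspn and Omd may belong to Cenpp.

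RefSeq promoters (GRCm38.p6) matched 6 of the 8 genes: Bgn, Fmod, Ogn, Aspn, Prelp and Omd. Dcn and Lum are named only. Each window was the 250 bases before the RefSeq start, read 5′ to 3′ in the direction of the gene. They were searched on both strands for CAGAC (the SMAD box, in 42.2% of the 32851 promoters of the table), TGANTCA (AP-1, 6.7%), GGAATG (TEAD, 12.6%), TATAAA (the TATA box, 12.4%) and GGGCGG (the GC box, 32.7%). The 5 windows printed are those of the genes of the clusters on chromosomes 1 and 13, chr1:134037004-134037253 for Fmod, chr1:133921402-133921651 (minus strand) for Prelp, chr13:49544193-49544442 for Aspn, chr13:49582212-49582461 for Omd and chr13:49607765-49608014 for Ogn. Capitals mark matches to the SMAD, AP-1, TEAD or TATA letters on either strand.
Fmod: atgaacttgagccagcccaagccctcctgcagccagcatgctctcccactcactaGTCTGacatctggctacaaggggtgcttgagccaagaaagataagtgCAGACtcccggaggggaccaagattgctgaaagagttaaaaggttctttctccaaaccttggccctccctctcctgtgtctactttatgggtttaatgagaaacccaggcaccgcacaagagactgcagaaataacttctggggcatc
Prelp: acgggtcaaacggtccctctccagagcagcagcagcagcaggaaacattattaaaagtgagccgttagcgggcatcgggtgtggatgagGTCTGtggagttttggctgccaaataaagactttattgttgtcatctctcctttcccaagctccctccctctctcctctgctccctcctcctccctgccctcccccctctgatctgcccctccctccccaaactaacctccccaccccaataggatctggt
Aspn: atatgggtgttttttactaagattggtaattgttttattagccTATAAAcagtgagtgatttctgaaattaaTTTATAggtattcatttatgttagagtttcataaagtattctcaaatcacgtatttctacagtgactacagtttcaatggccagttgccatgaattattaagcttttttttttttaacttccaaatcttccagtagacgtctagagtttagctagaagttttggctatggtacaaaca
Omd: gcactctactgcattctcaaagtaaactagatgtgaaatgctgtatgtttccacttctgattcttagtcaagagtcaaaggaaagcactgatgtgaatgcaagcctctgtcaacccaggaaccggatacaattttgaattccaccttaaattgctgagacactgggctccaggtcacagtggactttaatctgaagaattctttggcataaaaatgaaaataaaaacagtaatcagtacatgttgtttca
Ogn: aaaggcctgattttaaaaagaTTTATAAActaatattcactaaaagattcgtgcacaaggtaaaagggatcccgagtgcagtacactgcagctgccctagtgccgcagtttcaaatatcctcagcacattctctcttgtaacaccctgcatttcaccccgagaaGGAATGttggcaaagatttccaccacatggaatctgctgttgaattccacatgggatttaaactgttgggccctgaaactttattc
The Fmod window held 2 matches to the SMAD letters, which began 195 and 148 bases before the start. Prelp held 1 such match, 161 bases before the start. Ogn held 1 match to the TEAD letters (86 bases before the start) and 2 overlapping ones to the TATA letters (229 and 227 bases before it). Aspn held 2 matches to the TATA letters (207 and 178 bases before the start). The Bgn window was the richest in G and C of the 6 (64.4%, against 30.0% for Aspn), and held 3 matches to the GC box letters, 34, 10 and 6 bases before the start. No match to the 5 sets of letters was found in the Omd window. These are matches of letters and not measured binding.

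Biglycan made up nearly all of the SLRP signal. Bgn, whose product binds collagen and TGF-β and can signal through Toll-like receptors, stood at 441, 460 and 472 FPKM in the untreated libraries and ranked 67 to 91 among all genes over the 12 libraries. It was 90.7 to 92.4% of the summed FPKM of the 8 genes in the untreated cells and 96.7 to 97.5% in the treated ones. Without Bgn, the other 7 genes summed to 37.8 to 48.2 FPKM in the untreated, 17.1 to 20.1 in the TGF-β1, 13.5 to 17.0 in the M-MDSC sup and 13.99 to 14.68 in the G-MDSC sup libraries.

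The order of the genes below Bgn differed between groups. In the untreated cells Ogn followed (37.3 ± 5.27 FPKM, mean ± SD, n = 3), then Dcn (2.56 ± 0.261), Prelp (2.19 ± 0.0729), Omd (0.606 ± 0.0557), Fmod (0.504 ± 0.148) and Aspn (0.0623 ± 0.0157). Of these neighbours, Omd and Fmod overlapped over the libraries. In the TGF-β1 cells Fmod stood (5.75 ± 0.614 FPKM) between Ogn (7.24 ± 1.01) and Dcn (3.63 ± 0.197), and of the neighbours in that order Aspn and Omd overlapped. In the G-MDSC sup cells Dcn (5.07 ± 0.430 FPKM) and Ogn (4.71 ± 0.113) overlapped directly below Bgn, as did Omd with Aspn and Aspn with Lum. In the M-MDSC sup cells Ogn (6.22 ± 1.54 FPKM) stood above Dcn (3.81 ± 0.483) and Fmod (3.34 ± 0.441), and Dcn overlapped Fmod as Omd overlapped Aspn. Lum was last in each group.

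**Figure D1:**
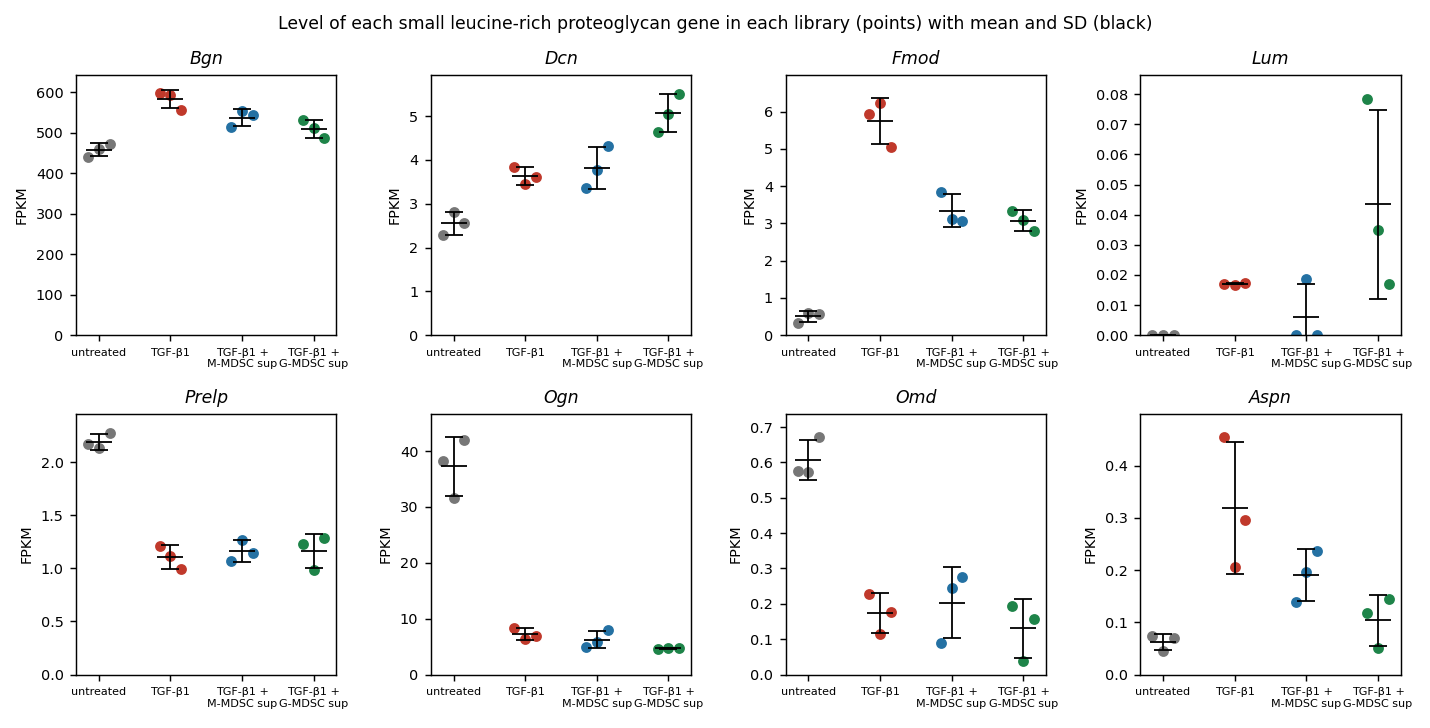
FPKM (y axis) of each of the 8 SLRP genes in each of the 12 libraries (points), by group (x axis), with the group mean and SD in black; each panel has its own scale from 0, which cuts the lower bar of Lum. Bgn lies between 441 and 597 FPKM throughout, Fmod rises from at most 0.602 to at least 5.06 FPKM with TGF-β1 alone, and Ogn falls from at least 31.6 to at most 8.38.

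TGF-β1 moved all 5 tested SLRPs, 3 up and 2 down. Fmod, Dcn and Bgn were higher and Ogn and Prelp lower than in untreated cells. The background was broad: edgeR's quasi-likelihood test called 34.0% of all tested genes at an adjusted p under 0.05, 16.1% higher and 17.9% lower. By the study's own rule, a fold above 2 or below 0.5 with an unadjusted p under 0.05, which called 6.74% of genes, 2 of the 5 passed (Fmod and Ogn). In all 5 the untreated and TGF-β1 libraries did not overlap, as for 46.7% of all tested genes. Fmod was below 1 FPKM in the untreated cells and so passed the filter through the treated libraries alone, and the count of 5 of 5 is read as a description. In these bulk cultures, fewer cells that express a gene and less RNA per cell cannot be told apart.

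Fmod, the class II proteoglycan that binds collagen and TGF-β, had the largest log2 fold change with TGF-β1 of the 5 tested SLRPs. It stood at 0.334, 0.602 and 0.575 FPKM in the untreated libraries and at 5.94, 6.24 and 5.06 FPKM with TGF-β1. All 3 treated libraries were far above all 3 untreated ones. The log2 fold change was 3.56 (SE 0.21, 11.8-fold, adjusted p = 3.57e-07, edgeR).

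Ogn, first described as a bone-derived factor and a binder of collagen, moved the other way. It stood at 38.2, 31.6 and 42.0 FPKM in the untreated libraries and at 8.38, 6.44 and 6.91 FPKM with TGF-β1. Every treated library was below every untreated one by a wide margin. It fell by 2.31 on the log2 scale (SE 0.17, 4.95-fold lower, adjusted p = 2.05e-06, edgeR), and the ratio of Bgn to Ogn in FPKM went from 11.2 to 14.6 in the untreated to 71.3 to 92.3 in the TGF-β1 libraries.

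Prelp, which ties basement membranes to the collagen beneath, stood at 2.17, 2.13 and 2.27 FPKM in the untreated libraries. With TGF-β1 it stood at 1.21, 1.12 and 0.991 FPKM. The groups did not overlap, and the spread within each was small. Prelp fell by 0.93 on the log2 scale (SE 0.13, 1.9-fold lower, adjusted p = 0.000198). The ratio of Fmod to Prelp turned from 0.154 to 0.283 in the untreated libraries to 4.9 to 5.58 with TGF-β1, so that the less abundant of the pair became the more abundant.

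Bgn and Dcn, both of class I, shifted less. Bgn was 597, 594 and 557 FPKM with TGF-β1, above the 441 to 472 FPKM of the untreated libraries, with a log2 fold change of 0.41 (SE 0.05, 1.32-fold, adjusted p = 4.77e-05). In FPKM this was the largest gain of any of the 8 genes, since the mean went from 458 ± 15.9 to 583 ± 22.3 (SD, n = 3). Dcn, the best known collagen-binding and TGF-β-binding SLRP, was far less abundant. It stood at 2.29, 2.81 and 2.57 FPKM untreated and at 3.84, 3.44 and 3.61 FPKM with TGF-β1, again with no overlap (log2 fold change 0.56, SE 0.11, adjusted p = 0.00221).

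The 3 genes under the filter were read from counts, in the fit with no filter, where 14.6% of 28622 genes were called. Aspn, a class I member that binds collagen and TGF-β1, had 15, 10 and 15 counts in the untreated libraries and 97, 45 and 63 with TGF-β1. These groups did not overlap, although the top level was only 0.455 FPKM (log2 fold change 2.39, SE 0.46, adjusted p = 0.00385). Omd, found mainly in bone matrix, had 111, 121 and 136 counts untreated and 47, 24 and 36 with TGF-β1. The counts did not overlap, but the change missed the threshold in that fit (log2 fold change -1.73, SE 0.54, adjusted p = 0.0557). It passed in 10 of the 22 alternatives tried, with adjusted p from 0.00153 to 0.183. Lum, a keratan sulfate proteoglycan of cornea and connective tissue, had 0 counts in each untreated library, which allows up to 0.036 to 0.0392 CPM (the level of 3 counts in each library), and 4 counts in each TGF-β1 library. Low counts in the table piled up at multiples of 4, so this is 1 step above 0 and Lum was not detectable as changed at this depth (adjusted p = 0.105).

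Fmod was lower with each supernatant than with TGF-β1 alone. Fmod was 3.85, 3.12 and 3.05 FPKM with M-MDSC sup and 3.35, 3.08 and 2.79 FPKM with G-MDSC sup. Every supernatant library was below the lowest TGF-β1 library (5.06 FPKM) and above the highest untreated one (0.602 FPKM). With M-MDSC sup it fell by 0.80 on the log2 scale (SE 0.19, 95% interval -1.22 to -0.385, adjusted p = 0.0363). With G-MDSC sup it fell by 0.93 (SE 0.19, interval -1.35 to -0.510, adjusted p = 0.0156). In mean FPKM, 45.9% of the gain with TGF-β1 was absent with M-MDSC sup and 51% with G-MDSC sup. Fmod was the 1 called gene of the 5 with M-MDSC sup, where 4.78% of all genes were called, 2.83% higher and 1.95% lower. M-MDSC sup replicates 1 and 2, nearly free of hepatocyte transcripts, had Fmod at 3.85 and 3.12 FPKM. The call with M-MDSC sup was lost with no filter (adjusted p = 0.0613), without the 4 libraries that held hepatocyte transcripts (log2 fold change -0.74, adjusted p = 0.211), and on leaving out TGF-β1 replicate 1, 2 or 3, G-MDSC sup replicate 1 or 2, or M-MDSC sup replicate 2 or 3, with adjusted p from 0.0523 to 0.131 and a log2 fold change from -0.87 to -0.74.

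With G-MDSC sup 3 of the 5 were called, Fmod and Bgn lower and Dcn higher, where 5.56% of all genes were called, 3.10% higher and 2.46% lower. Bgn stood at 532, 511 and 487 FPKM, below the 557 to 597 FPKM of TGF-β1 alone and above the untreated range. The log2 fold change was -0.22 (SE 0.05, adjusted p = 0.0183), and it was not called when only these 2 groups were fitted (adjusted p = 0.0869). With M-MDSC sup Bgn was 514, 554 and 545 FPKM, also below every TGF-β1 library, but the difference of -0.14 on the log2 scale (interval -0.240 to -0.038) missed the threshold (adjusted p = 0.140), and it was -0.15 (adjusted p = 0.256) without the 4 libraries that held hepatocyte transcripts.

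Dcn with G-MDSC sup was 4.65, 5.04 and 5.51 FPKM, the highest of any group. All 3 libraries lay above the highest TGF-β1 library (3.84 FPKM), so that Dcn rose with TGF-β1 and rose further with G-MDSC sup (log2 fold change 0.45, SE 0.11, adjusted p = 0.0351). With M-MDSC sup it was 3.35, 3.77 and 4.31 FPKM, a range that held the whole TGF-β1 range (log2 fold change 0.05, interval -0.192 to 0.288, adjusted p = 0.885). The 4 libraries with Dcn above 4 FPKM were the 4 in which the hepatocyte markers summed to 59.3 FPKM or more. M-MDSC sup replicates 1 and 2, where they summed to 0.526 and 0.502 FPKM, had Dcn at 3.35 and 3.77 FPKM, close to the 3.44 to 3.84 FPKM of TGF-β1 alone. Without the 4 libraries the log2 fold change of Dcn with M-MDSC sup was -0.05 (adjusted p = 0.909).

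**Figure D2:**
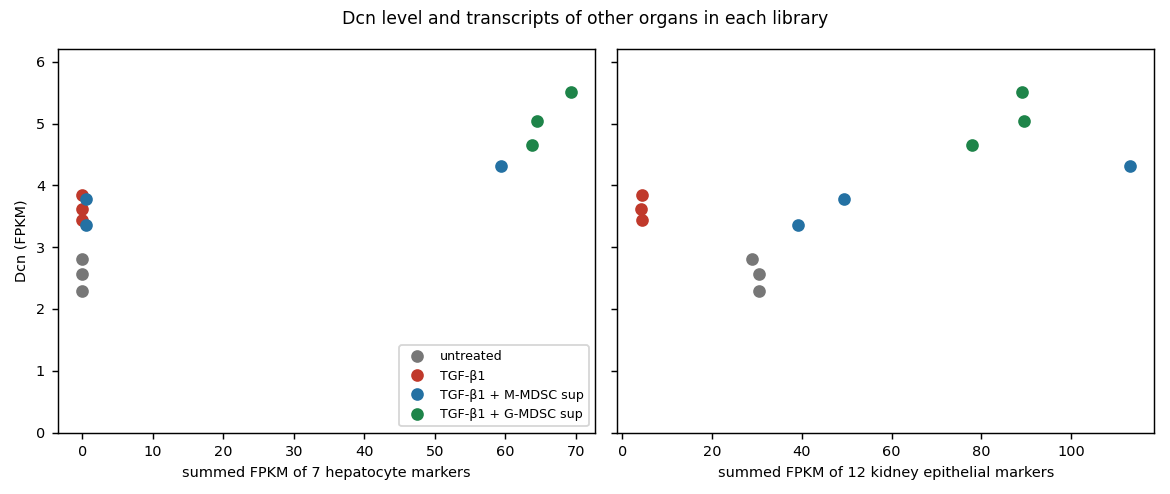
Dcn level in FPKM (y axis) against the summed FPKM of 7 hepatocyte markers (left) and 12 kidney epithelial markers (right) in each library (points, coloured by group). The right sum includes Aqp1, which is not particular to kidney and was 28.9 to 30.4 FPKM in the untreated libraries. The other 11 summed to at most 0.0968 FPKM there. The 4 libraries at 59.3 FPKM or more of hepatocyte markers have Dcn at 4.31 to 5.51 FPKM, and the 8 others at 3.84 or less.

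The calls with G-MDSC sup also turned on single libraries. None of the 3 was called on leaving out TGF-β1 replicate 1, TGF-β1 replicate 2, G-MDSC sup replicate 2 or G-MDSC sup replicate 3 (adjusted p from 0.0522 to 0.128), and Dcn alone was lost without untreated replicate 3 (0.0552), TGF-β1 replicate 3 (0.0852) or M-MDSC sup replicate 2 (0.0553). The log2 fold changes kept their sign in each, from -0.996 to -0.864 for Fmod, from -0.25 to -0.19 for Bgn and from 0.39 to 0.51 for Dcn.

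No return toward the untreated level was called for the tested genes that TGF-β1 lowered. Ogn was 4.98, 5.74 and 7.94 FPKM with M-MDSC sup and 4.58, 4.76 and 4.79 FPKM with G-MDSC sup. The G-MDSC sup libraries all lay below the lowest TGF-β1 library (6.44 FPKM), and the M-MDSC sup libraries overlapped it. Against TGF-β1 the log2 difference was -0.65 with G-MDSC sup (SE 0.17, adjusted p = 0.0501) and -0.24 with M-MDSC sup (interval -0.608 to 0.124, adjusted p = 0.511). The latter was -0.45 (adjusted p = 0.230) without the 4 libraries that held hepatocyte transcripts. The difference with G-MDSC sup sat at the threshold: DESeq2 (adjusted p = 0.00314), the filterByExpr filter (0.0492), the fit of the 2 groups (0.0250) and leaving out M-MDSC sup replicate 1 (0.0321) or 3 (0.0117) put it below 0.05. Prelp was 1.07, 1.27 and 1.15 FPKM with M-MDSC sup and 1.23, 0.983 and 1.29 FPKM with G-MDSC sup. It overlapped TGF-β1 alone in both, and each interval ran from -0.230 to 0.328 on the log2 scale, which leaves room for a partial return. Without the 4 libraries that held hepatocyte transcripts, the difference with M-MDSC sup was 0.06 (adjusted p = 0.904). In mean FPKM, 5.09% of the loss with TGF-β1 was absent with M-MDSC sup and 5.4% with G-MDSC sup.

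Of the genes under the filter, Aspn had 28, 39 and 49 counts with M-MDSC sup and 27, 11 and 31 with G-MDSC sup. The G-MDSC sup counts lay below the 45 to 97 of TGF-β1 alone, with no call in the fit with no filter (log2 difference -1.60, adjusted p = 0.114 for G-MDSC sup, and -0.74, adjusted p = 0.591 for M-MDSC sup). With G-MDSC sup Aspn passed by DESeq2 (adjusted p = 0.0231) and by the study's fold rule, and in none of the other 19 alternatives. Omd had 17, 46 and 55 counts with M-MDSC sup and 42, 8 and 32 with G-MDSC sup, overlapping the 24 to 47 of TGF-β1 alone. Lum had 19, 8 and 4 counts with G-MDSC sup and 0, 4 and 0 with M-MDSC sup. Against the 0 counts of the untreated libraries, Lum with G-MDSC sup had an adjusted p of 0.0490 in that fit, at levels of at most 0.0783 FPKM and in the libraries with hepatocyte transcripts.

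**Figure D3:**
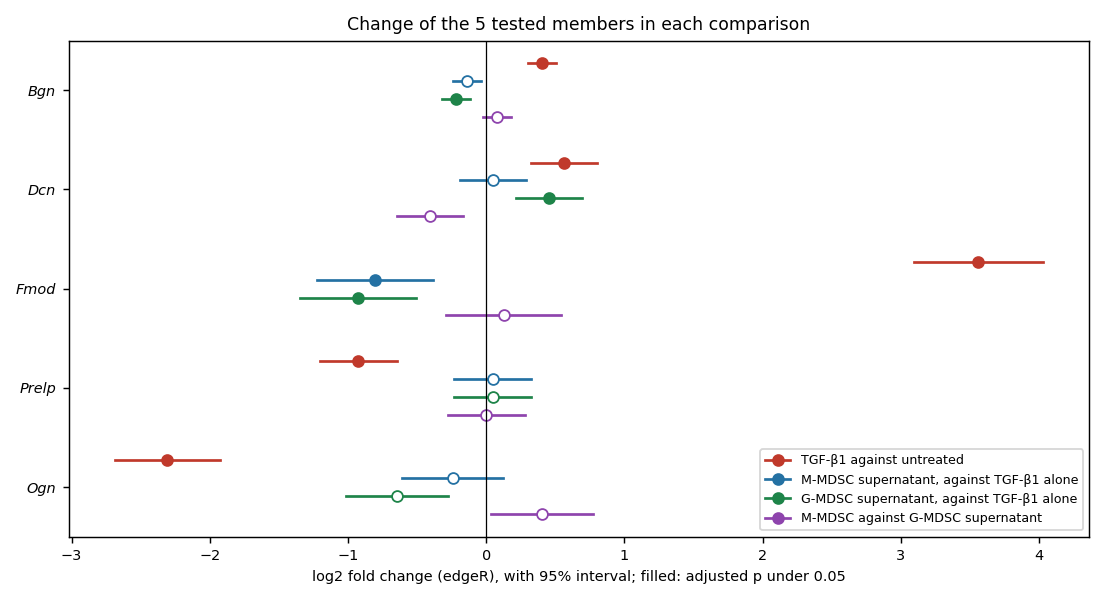
Log2 fold change (x axis) with its 95% interval (lines) of the 5 tested SLRP genes (y axis) in 4 comparisons, by edgeR; filled points had an adjusted p under 0.05. All 5 points of TGF-β1 against untreated are filled, with Fmod at 3.56 and Ogn at -2.31, and none of M-MDSC against G-MDSC sup is.

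The supernatants were also set against each other. None of the 5 SLRPs was called between M-MDSC and G-MDSC sup by edgeR, DESeq2 or limma, where edgeR called 0.125% of all genes (15). At an unadjusted p under 0.05 there were 2, against 6.33% of all genes. Dcn was lower with M-MDSC sup (log2 difference -0.41, interval -0.646 to -0.166, edgeR adjusted p = 0.348), and Ogn was higher (0.40, interval 0.037 to 0.772, edgeR adjusted p = 0.746). For Fmod the difference was 0.13 (interval -0.292 to 0.543), for Bgn 0.08 (interval -0.022 to 0.180) and for Prelp 0.00 (interval -0.279 to 0.279).

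Against untreated cells, all 5 kept the direction of TGF-β1 alone with either supernatant, where 35.2% of genes were called with M-MDSC sup and 34.8% with G-MDSC sup. Fmod was still 6.76-fold higher with M-MDSC sup and 6.2-fold higher with G-MDSC sup. Ogn was 5.85-fold and 7.74-fold lower, and Prelp 1.84-fold lower with both. Bgn was 1.203-fold and 1.139-fold higher, and Dcn 1.53-fold and 2.02-fold higher. By the study's fold rule, 2 of the 5 passed with M-MDSC sup, against 6.98% of all genes, and 3, with Dcn added, with G-MDSC sup, against 6.80%. Each adjusted p in these comparisons was at most 0.00835.

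Seen along the chromosomes, the clusters did not move as blocks. On chromosome 1 Prelp fell while Fmod rose, and Optc, an SLRP of the eye that lies 3.1 kb from Prelp, went from 38, 62 and 85 counts to 115, 154 and 132 with TGF-β1 (log2 fold change 1.17, adjusted p = 0.0117, fit with no filter). On chromosome 13 Ogn fell while Aspn, upstream of it, rose. Between them Omd, at -1.73 in the direction of Ogn, and beside them Ecm2 (-0.17, adjusted p = 0.941) were not called. On chromosome 10 only Dcn was clearly expressed: Lum had at most 19 counts, and Kera and Epyc, SLRPs of cornea and cartilage, had 0 counts in all 12 libraries, which allows up to 0.0406 CPM.

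**Figure D4:**
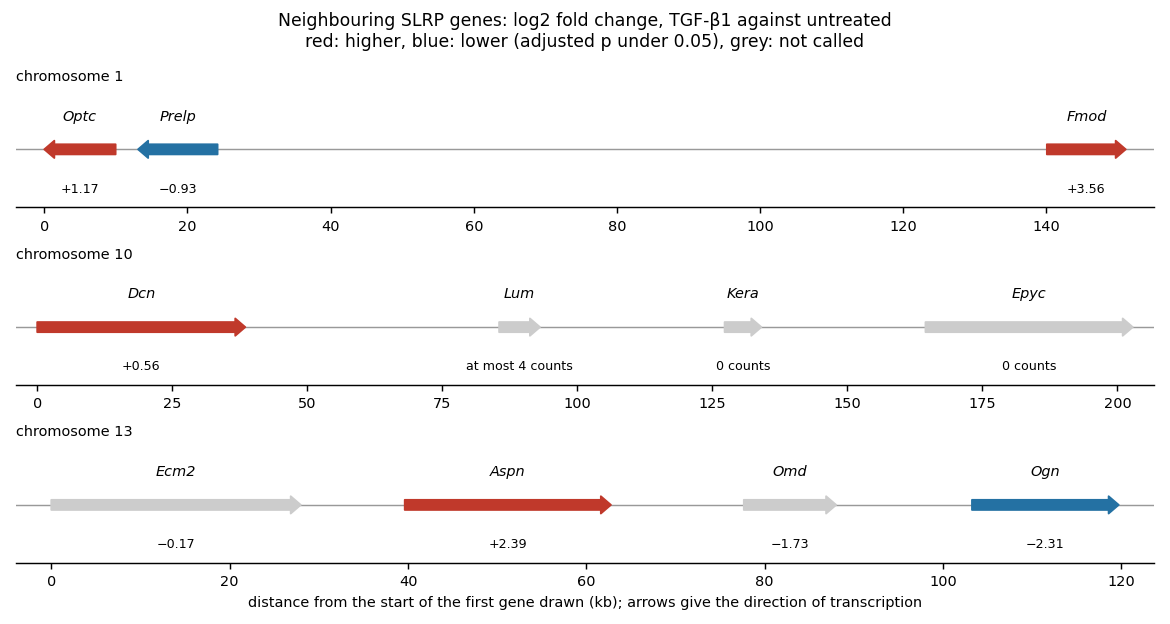
The 3 SLRP clusters to scale, with distance in kb from the first gene drawn (x axis) and arrows for the direction of transcription; the number under a gene is its log2 fold change with TGF-β1 against untreated, and Optc, Aspn, Omd and Ecm2 come from the fit with no filter. Red is higher and blue lower at an adjusted p under 0.05, and genes under 5 counts in the untreated and TGF-β1 libraries carry their count instead. Prelp (-0.93) and Fmod (3.56) differ in direction, as do Ogn (-2.31) and Aspn (2.39).

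Of the other 10 SLRP genes, 2 passed the filter. Tsku, a secreted class IV member, was 7.33, 6.88 and 8.77 FPKM untreated and 7.70, 11.46 and 11.96 FPKM with TGF-β1. The groups overlapped through TGF-β1 replicate 1, and the gene was called higher (log2 fold change 0.49, adjusted p = 0.0245). Podnl1, of class V, was 3.97 to 4.69 FPKM in all libraries and was not called in the comparisons with TGF-β1 (log2 differences of -0.02 against untreated, -0.02 with M-MDSC sup and -0.05 with G-MDSC sup).

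The genes that build, bind and cut SLRPs were counted next, as lists picked for what they do. Values after a gene here are log2 fold changes, and genes said to rise or fall had an adjusted p under 0.05 by edgeR. Across all tested genes the median log2 fold change with TGF-β1 was 0.000, and with the supernatants it was -0.013 and -0.014. The counts below stand against 16.1% of all tested genes called higher and 17.9% called lower with TGF-β1, 2.83% and 1.95% with M-MDSC sup, and 3.10% and 2.46% with G-MDSC sup. Between M-MDSC and G-MDSC sup no tested gene of these lists was called, against 0.125% of all tested genes. The fibrillar collagens, whose fibrils SLRPs coat, rose together with TGF-β1, 6 of 6 (median 1.103), among them Col5a1 (1.91), Col3a1 (1.60) and Col5a2 (1.10). Col1a1, Col3a1, Col5a1 and Col5a2 were also readouts that the study itself chose for these cultures, as was Ccn2, named below. With M-MDSC sup 3 of 6 fell (median -0.195), with Col3a1 at -0.21 and Col11a1 at -0.41, and with G-MDSC sup 5 of 6 did (median -0.223), with Col3a1 at -0.16 and Col11a1 at -0.53. None of the 3 calls with M-MDSC sup held without the 4 libraries that held hepatocyte transcripts, where 319 of 12016 genes were called and the median was -0.165. There Col3a1 was at -0.19 (adjusted p = 0.0718) and Col11a1 at -0.47 (adjusted p = 0.0742). Col1a2 was at -0.16 (adjusted p = 0.134), against -0.18 with all libraries.

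Enzymes of the sugar chains moved in both directions. Of the enzymes that build the linker to the core protein, 1 of 5 rose with TGF-β1 (B4galt7, 0.41) and none fell (median 0.026). Of 12 enzymes of chondroitin and dermatan sulfate, 3 rose and 4 fell (median 0.046): Chsy1, which extends the chain, rose by 1.59, the sulfotransferase Chst11 by 1.22 and Csgalnact1, which starts the chain, by 0.63, while Dse, the epimerase that makes dermatan sulfate, was at -0.35 and Chst12 at -0.35. Of 6 enzymes of keratan sulfate and tyrosine sulfation, 2 rose and 2 fell (median 0.014). The keratan sulfotransferase Chst1 was at -1.61, and the tyrosine sulfotransferase Tpst2, which acts on the termini of SLRPs such as Fmod, at 0.47.

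With the supernatants few of these were called. Chst11 rose in both (0.29 with M-MDSC and 0.36 with G-MDSC sup), as did the galactosyltransferase B4galt1 (0.21 and 0.23). Chsy1 (-0.17), Chst1 (-0.20) and Tpst1 (-0.24) fell with M-MDSC sup and Tpst2 (-0.28) with G-MDSC sup. Of these 5 calls with M-MDSC sup, Chst11 (0.35, adjusted p = 0.0232) alone held without the 4 libraries that held hepatocyte transcripts, where 319 of 12016 genes were called. The adjusted p of the other 4 ran from 0.0742 to 0.225, with B4galt1 at 0.23, Chst1 at -0.21, Chsy1 at -0.16 and Tpst1 at -0.22. No linker enzyme was called in either, with medians of -0.081 and -0.076. The lists of chondroitin and keratan enzymes had medians of -0.121 and -0.051 with M-MDSC sup and of -0.098 and -0.142 with G-MDSC sup.

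Of 5 tested proteases and helpers that process or cut SLRPs or the collagens with them, 3 rose and 2 fell with TGF-β1 (median 0.502). Adamts4, among the 3 that rose, was 0.446 to 0.741 FPKM in the untreated libraries and so passed the filter through the treated libraries alone. Bmp1, which removes the propeptide of biglycan, rose by 1.39 and Mmp14 by 0.50, while Adamts5, an aggrecanase, was at -1.89 and Pcolce, an enhancer of Bmp1, at -1.13. With all libraries none was called with either supernatant (medians -0.075 and 0.027). Without the 4 libraries that held hepatocyte transcripts, 1 of the 5 was called with M-MDSC sup (median -0.007), where 319 of 12016 genes were called. This was Adamts5, at -0.42 (adjusted p = 0.0169), against -0.38 (adjusted p = 0.121) with all libraries. Of 11 tested receptors and ligands, 6 rose and 3 fell (median 0.363). Tlr2, among the 6 that rose, was 0.738 to 0.802 FPKM in the untreated libraries and also passed the filter through the treated libraries alone. The TGF-β-induced matricellular gene Ccn2 (2.53), Ccn4 (1.98) and Tgfb1 itself (1.98) led the rise, and the receptor gene Met (-1.02), whose product decorin can bind, was lower. With M-MDSC sup Tlr2, which encodes a receptor of biglycan, rose by 0.50 and Ccn4 was at -0.39. Without the 4 libraries that held hepatocyte transcripts Ccn4 stayed called (-0.32, adjusted p = 0.0454) and Tlr2 did not (0.54, adjusted p = 0.154). With G-MDSC sup Tlr2 rose by 0.49, and Ccn2 (-0.28) and Ccn4 (-0.37) fell. The medians were -0.181 and -0.208. Tlr4, another Toll-like receptor gene of this list, named after its values were seen, was not called with either supernatant (-0.50, adjusted p = 0.817, and -0.96, adjusted p = 0.624). It was 4.48 to 5.99 FPKM in the untreated and 1.82 to 2.07 in the TGF-β1 libraries, 0.219, 1.86 and 2.06 FPKM with M-MDSC sup and 0.246, 2.17 and 0.595 FPKM with G-MDSC sup, so that 3 of the 6 supernatant libraries stood far below the others.

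**Figure D5:**
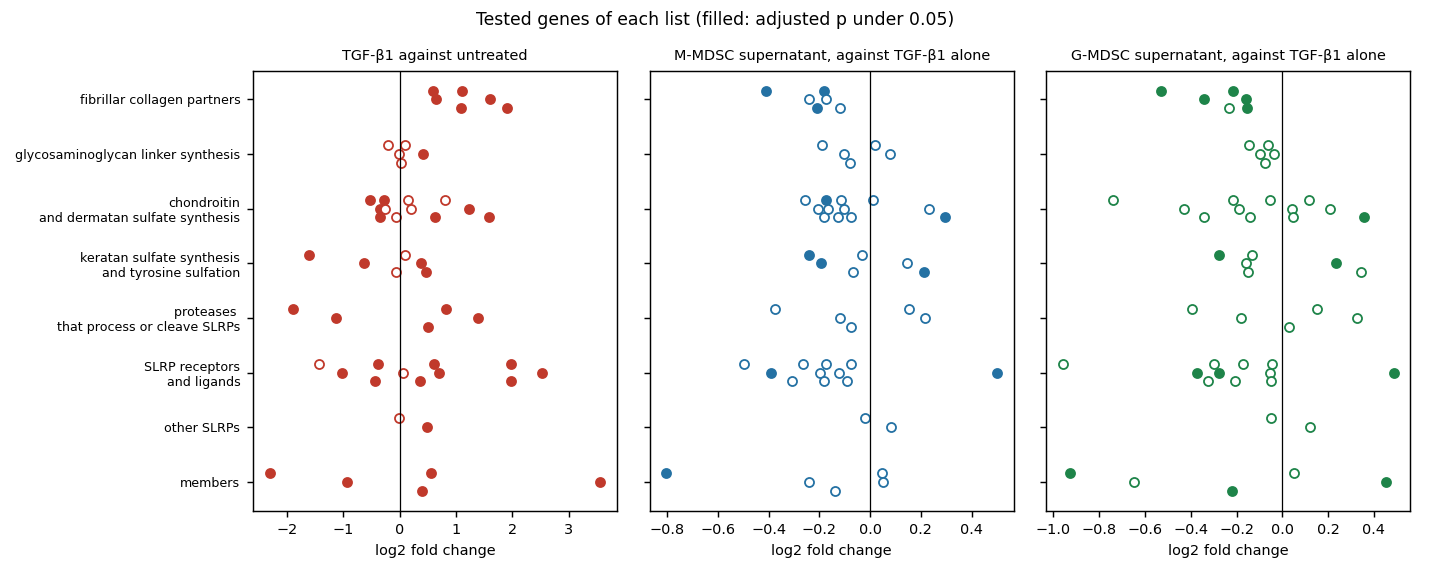
Log2 fold change (x axis, a scale per panel) of every tested gene (points) in each list (y axis), for TGF-β1 against untreated (left) and for M-MDSC (middle) and G-MDSC sup (right) against TGF-β1 alone; filled points had an adjusted p under 0.05. All 6 fibrillar collagens are filled and above 0 with TGF-β1, and 3 and 5 of them are filled and below 0 with the supernatants.

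Each tested SLRP had genes with a like profile over the 12 libraries, named by the highest Pearson correlation of log2(FPKM + 1). The correlations share the 4 group means and the same libraries, so they are descriptions. For Fmod these were Pkp1 (0.990), Postn (0.989), which encodes the matricellular protein periostin, and Foxs1 (0.987). Mean Postn levels were 0.0974, 3.3, 1.9 and 1.66 FPKM in the untreated, TGF-β1, M-MDSC sup and G-MDSC sup cells. For Ogn they were Cavin1, Tgfbr2, a TGF-β receptor, and Cd34 (each 0.990), with Tgfbr2 at 36.8, 17.6, 17.4 and 16.1 FPKM in the same order. For Bgn they were Serpinf1 (0.953), Gask1b (0.952) and Eva1a (0.949), for Dcn Nt5e (0.937), Carmil1 (0.928) and Tmem199 (0.927), and for Prelp Pxk (0.994), Galm (0.987) and Fam107b (0.981).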

How the data were processed

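Poly(A) RNA of MSCs was sequenced in 12 libraries, 3 in each of 4 groups. The submitters' processing notes name cutadapt 1.9, HISAT2 2.0.4 and StringTie 1.3.4d. The study's methods name fastp for read quality and, without versions, HISAT2 for alignment to GRCm38 and StringTie for assembly, and do not name cutadapt. The deposited table holds, per gene, counts for each library and FPKM calculated by the authors, in which a small placeholder stands for 0 and was read as 0. The counting tool and its strand setting are not given in the sources used here, and 44.3% of the deposited counts from 1 to 12 were 4, 8 or 12. Depth was 73977669 to 84565450 counts per library, and p-values and limits cover the spread between libraries or counting error only.

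The 12016 genes that reached 1 FPKM in 3 or more libraries were tested with edgeR 4.0.16 in R 4.3.3, with TMM scaling, all 4 groups in 1 quasi-likelihood fit, two-sided tests and Benjamini-Hochberg adjustment over all genes tested. An adjusted p under 0.05 was a call. A fit with no filter gave values for the 3 low SLRPs and their neighbours. Alternatives used DESeq2 1.42.0, limma 3.58.1 on log2(FPKM + 1) or log2(FPKM + 0.1), other scaling and filters, a replicate block, counts divided by 4, the 2 groups alone, the study's fold rule and each library left out. Of these fits, only the filtered edgeR fit was tested on simulated counts, for TGF-β1 against untreated. Of each list, at most 5 genes are named, those with the smallest p for TGF-β1 and for each supernatant, plus the few called with a supernatant; genes with a like profile are the 3 with the highest correlation. The members, lists and markers were chosen with earlier results of these data known. Promoters came from RefSeq, and protein sequences were not used here.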

Additional observations from a re-analysis of the deposited data

How the results depend on the processing

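With TGF-β1 against untreated, all 5 tested SLRPs were called in every setting except the study's fold rule, which called 2. The same held for M-MDSC sup against untreated (2 by the fold rule) and G-MDSC sup against untreated (3). Leaving out 1 library at a time kept 5 calls in each of these 3 comparisons. With M-MDSC sup against TGF-β1 the single call became 0 with no filter, with the replicate block, under the fold rule and without the 4 libraries that held hepatocyte transcripts (an alternative chosen after seeing the data), and it ranged from 0 to 1 on leaving out 1 library. With G-MDSC sup against TGF-β1 the 3 calls became 0 under the fold rule, 4 with DESeq2 and with the filterByExpr filter, and ranged from 0 to 4 on leaving out 1 library. Between the supernatants the count was 0 in each setting. The replicate block moved Fmod with M-MDSC sup from an adjusted p of 0.0363 to 0.0796 and changed no other count of calls. Same-numbered libraries did not deviate together (mean correlation -0.0038 over 18 pairs, -0.156 to 0.078), so they share only a number.

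Differences near 0 changed sign. Against TGF-β1 with M-MDSC sup, leaving out 1 library moved the log2 fold change of Dcn from -0.0486 to 0.1317, of Omd from -0.066 to 0.5736 and of Prelp from -0.0201 to 0.1182; without the 4 libraries with hepatocyte transcripts Dcn was at -0.0486 and Omd at -0.0590. With G-MDSC sup Prelp ranged from -0.0292 to 0.1589. Between the supernatants Prelp was -0.0006 by limma on log2(FPKM + 1), -0.0003 in the fit of these 2 groups and -0.0058 with counts divided by 4, and ranged from -0.1097 to 0.0783 on leaving out 1 library. The causes were not tested. Lum had at most 19 counts in a library, and Aspn and Omd had 8 to 136.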
